A study of Mus musculus with 8 samples.

Results

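The 8 fibroblast growth factor (FGF) ligand genes Fgf3, Fgf4, Fgf5, Fgf8, Fgf10, Fgf15, Fgf17 and Fgf18 were followed across genotypes, stages and cell groups of chimeric mouse embryos. They were taken by gene name, as 8 of the 55422 features of the count matrices, and all 8 were detected at both stages. The embryos had been made by injecting embryonic stem (ES) cells without functional Tet1, Tet2 and Tet3 into host blastocysts, and single-cell RNA-seq with 10x Genomics chemistry was carried out on sorted cells of pooled embryos. The groups were Tet-TKO (tdTomato+, derived from a C57BL/6J-129Sv ES cell line with an H2B-tdTomato reporter under the CAG promoter) and WT host (tdTomato-, C57BL/6J), with 4 Tet-TKO and 2 WT host libraries at embryonic day (E) 8.5 and 1 library of each genotype at E7.5. The mutant cells therefore come from the ES line and the WT cells from the host embryos, and strain, ES origin and genotype cannot be told apart.

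FGF ligands are secreted proteins that bind FGF receptors on neighbouring cells and act largely through the MAP kinase pathway, whose output is limited by feedback inhibitors of the Sprouty, Spred and Dusp families. During gastrulation Fgf4 and Fgf8 are produced in the primitive streak and are needed for the movement and patterning of mesoderm, and in the growing tail bud the FGF signal falls from caudal to rostral and sets where somites form. Fgf5 is a marker of the epiblast, Fgf3 and Fgf10 act on the inner ear, Fgf15 is expressed in the early neural tube, Fgf17 and Fgf18 are close relatives of Fgf8, and Fgf10 is a mesodermal ligand of limb and lung buds. TET enzymes oxidise methylated cytosine, and the comparison of Tet-TKO with WT host cells asks which genes depend on them in which cell types.

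The E8.5 libraries held between 65601218 and 136982886 unique molecular identifiers (UMIs), and 37211 cells were kept at E8.5 and 12655 at E7.5. tdTomato reached 71.5 to 144 CPM (a gene's share of all UMIs, in ppm) in the Tet-TKO libraries and 0.444 to 0.938 CPM in the WT host libraries. Tet1, Tet2 and Tet3 transcripts were still counted in every Tet-TKO library, at E8.5 for Tet1 at 9.93 to 20.9 CPM against 20.4 to 22.5 CPM in WT host libraries, for Tet2 at 5.55 to 10.5 CPM against 4.63 to 4.67 CPM and for Tet3 at 22.5 to 37.5 CPM against 23.1 to 23.2 CPM. These are counts of 3' tags that can lie outside the deleted part, so they do not check the knockout. Tet-TKO libraries 3 and 4 held 2304 and 1012 kept cells, fewer than the 7045 and 9552 of libraries 1 and 2. Their median UMIs per kept cell were 40386.5 and 68704, against 18763 and 12176 in Tet-TKO libraries 1 and 2. Libraries 1 and 2 resembled each other, with a chi-square per degree of freedom of 14.2, as did libraries 3 and 4 with 16.1, whereas the other Tet-TKO combinations lay between 159 and 171 and the 2 WT host libraries at 128. The class results described at length are therefore also given without libraries 3 and 4 and without libraries 1 and 2. Each such fit keeps Tet-TKO libraries that resemble each other. Of all gene and class combinations 1.65% and 4.03% passed the threshold given below in these fits, against 0.548% with all libraries. A smaller p-value there is therefore not stronger evidence than the fit on all libraries. Whether libraries came from separate pools of embryos is not stated. The p-values measure the spread between libraries, as edgeR estimates it with the help of all genes, and that spread may be technical. Clustering without the FGF genes gave 34 classes at E8.5, of which 24 were named from marker genes and are written with the ending "-like", and the rest are given by cluster number. At most 28 cell barcodes were shared by any 2 libraries.

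In WT host cells at E8.5, each ligand had its highest level in a different part of the embryo, except that the caudal end was shared by several of them. Levels are UMIs of a gene scaled to the total UMIs of the class in a library, in CPM, over 32 classes with at least 10 cells in both WT host libraries, and they are compared within a gene only. The heat map of ligands by class shows these levels.

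**Figure D1:**
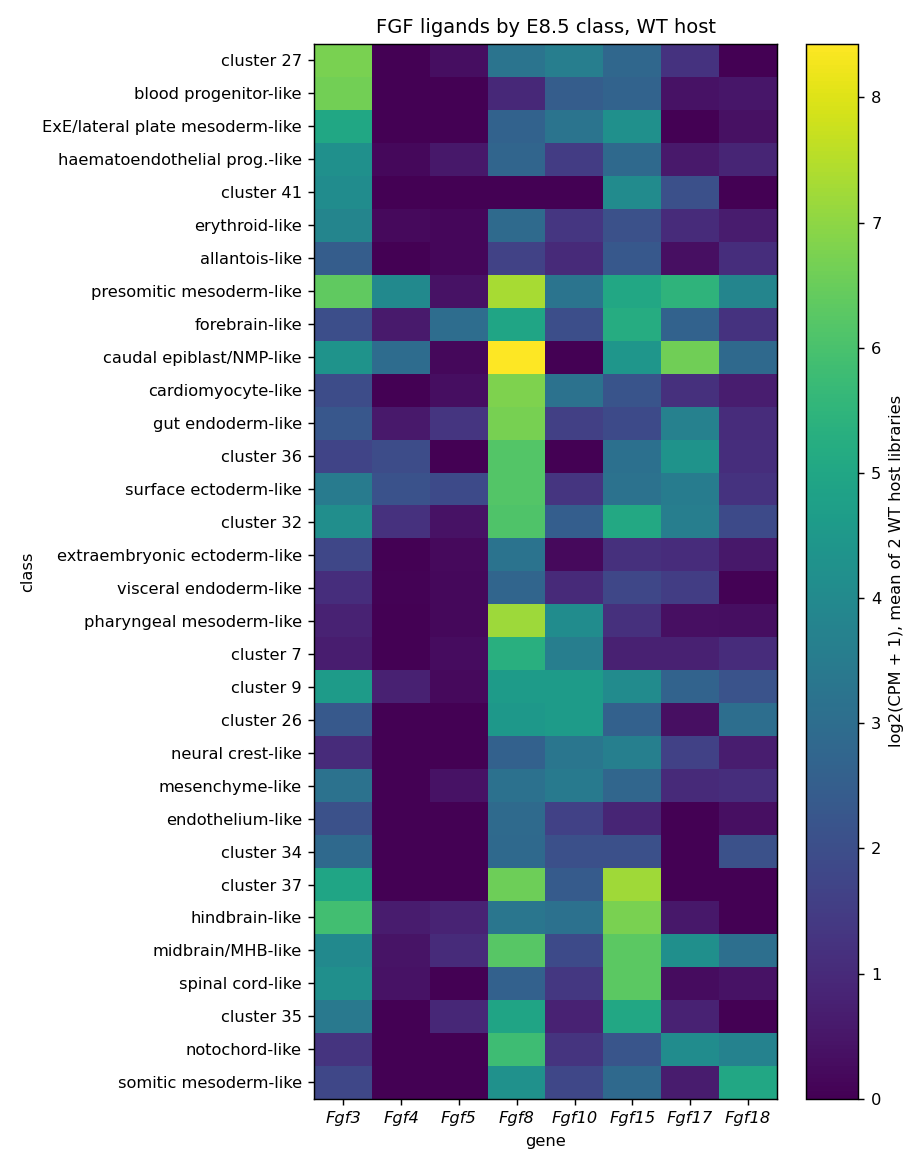
Level of the 8 FGF ligand genes (columns) in 32 E8.5 classes (rows) of WT host cells, as log2(CPM + 1) of the mean of 2 libraries. Fgf8 and Fgf17 are highest in the caudal epiblast and neuromesodermal progenitor-like class, Fgf4 in the presomitic mesoderm-like class, Fgf18 in the somitic and paraxial mesoderm-like class and Fgf3 in cluster 27 and the blood progenitor-like class.

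Of the ligands of the caudal embryo, Fgf8 was highest in the caudal epiblast and neuromesodermal progenitor-like class, the cells that feed the growing spinal cord and trunk mesoderm, with 289 and 397 CPM in WT host libraries 1 and 2. It followed in the presomitic mesoderm-like class with 181 and 136 CPM and in the pharyngeal mesoderm-like class with 175 and 113 CPM. Both caudal epiblast values lay above the others, whereas the values of the presomitic and pharyngeal classes overlapped. Fgf17 had the same leading classes, with 76.9 and 114 CPM in the caudal epiblast and neuromesodermal progenitor-like class and 30.2 and 57.5 CPM in the presomitic mesoderm-like class. Fgf4 was scarce and reached 17.5 and 12.5 CPM in the presomitic mesoderm-like class, against 6.60 and 7.12 CPM in the caudal epiblast and neuromesodermal progenitor-like class and 3.04 and 3.59 CPM in the surface ectoderm-like class. The mean of Fgf4 stayed under 1 CPM in 27 of the 32 classes. Fgf18 peaked in the somitic and paraxial mesoderm-like class with 30.7 and 33.7 CPM, followed by the presomitic mesoderm-like class with 9.73 and 16.5 CPM.

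Fgf3 was highest in blood-forming cells. Its level was 146 and 66.3 CPM in cluster 27, an unnamed cluster led by Rab27b, Fcer1g, Plek and Myb, and 144 and 51.5 CPM in the blood progenitor-like class. The presomitic mesoderm-like class had 90.1 and 73.6 CPM and the hindbrain-like class 48.6 and 68.0 CPM, so that the first 3 classes were not separated by their ranges. Fgf15 was a gene of the neural tube, with 93.9 and 118 CPM in the hindbrain-like class, 86.5 and 71.1 CPM in the midbrain and midbrain-hindbrain boundary-like class, 64.6 and 92.7 CPM in the spinal cord-like class and 39.7 and 33.3 CPM in the forebrain-like class. Cluster 37, whose cells hold few UMIs, spread from 50.8 to 250 CPM between the libraries. Reads of Fgf15 and of Fgf10 overlap annotated antisense genes on the opposite strand, and their counts could include these if strand was not used.

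Fgf5 had largely gone by E8.5: the forebrain-like class led with 12 and 2.02 CPM, and in 28 of 32 classes its mean was under 1 CPM. Fgf10 was highest in mesoderm, with 19.1 and 28.0 CPM in cluster 9 (led by Cdx4, Hoxd1 and Hoxd9), 20.6 and 26.2 CPM in cluster 26 (led by Lhx1 and Osr1) and 17.8 and 14.7 CPM in the pharyngeal mesoderm-like class, which holds progenitors of the heart and face. The first 2 of these did not differ beyond their spread.

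Over all cells of a library at E8.5, 0 of 8 members passed the threshold, where 2.65% of all 21075 genes did. The test was edgeR (quasi-likelihood), with p-values adjusted over all genes by Benjamini-Hochberg, and a call needs an adjusted p under 0.01 together with a log2 fold change of at least 1 in size. At an unadjusted p of 0.05 the count was 4 of 8 members beside 26.7% of all genes. DESeq2 called 0 of 8, beside 6.86% of all genes. In these bulk sums, fewer cells of a type and less RNA per cell cannot be told apart. Tet-TKO values lay above both WT host values in all 4 libraries for Fgf3, Fgf8, Fgf10 and Fgf18, where 26.3% of genes with a mean of at least 0.5 CPM did so. The reverse order held for 0 of 8 members and for 18.1% of genes. The median log2 fold change of the members was 0.63, and that of all tested genes 0.02.

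Numbering the Tet-TKO libraries from 1 to 4, Fgf8 had 71.0, 75.3, 59.9 and 56.0 CPM against 43.2 and 42.7 CPM of the WT host. This is a log2 fold change of 0.54 ± 0.19 (here and after ± is the standard error), with an adjusted p of 0.133 by edgeR. Fgf18 had 3.49, 3.49, 4.16 and 4.13 CPM against 1.56 and 2.70 CPM, a log2 fold change of 0.75 ± 0.24 with an edgeR adjusted p of 0.0973. Fgf10 had 7.39, 5.55, 6.04 and 7.96 CPM against 4.08 and 4.39 CPM, a log2 fold change of 0.58 ± 0.18 with an edgeR adjusted p of 0.0945. Fgf3 had 43.4, 29.6, 20.4 and 20.7 CPM against 19.7 and 12.6 CPM, and libraries 3 and 4 were close to WT host library 1. Its log2 fold change of 0.77 ± 0.40 (edgeR adjusted p = 0.273) became 1.19 without libraries 3 and 4 (edgeR adjusted p = 0.0404) and 0.17 without libraries 1 and 2 (edgeR adjusted p = 0.504). Fgf4 was nearly level, with 0.738 to 1.03 CPM in Tet-TKO and 0.804 and 0.991 CPM in WT host libraries. Fgf5, Fgf15 and Fgf17 overlapped between the groups, with log2 fold changes of 0.68, 0.18 and 0.68.

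**Figure D2:**
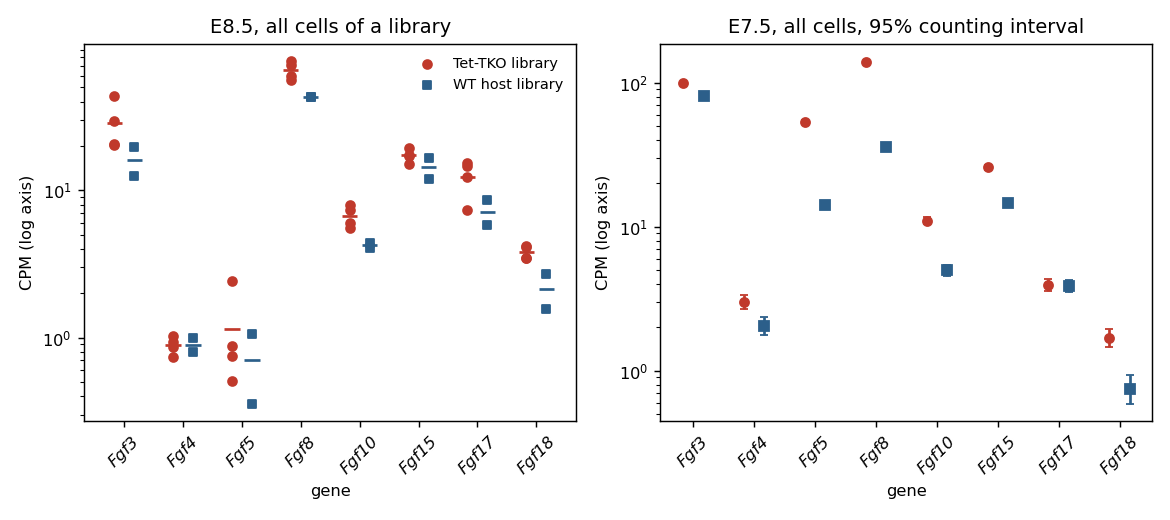
Level of each ligand over all cells of a library, in CPM on a log axis. Left, E8.5 with 1 point per library and a line at the group mean, and right, E7.5 with 1 library per genotype and a 95% Poisson interval for counting error. At E8.5 the 4 Tet-TKO libraries lie above both WT host libraries for Fgf3, Fgf8, Fgf10 and Fgf18, and at E7.5 the gap is widest for Fgf8 and Fgf5.

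These sums mix the classes, and the 2 genotypes differ in their makeup. The erythroid-like class, for example, made up 0.170% to 1.17% of cells in Tet-TKO libraries and 15.99% and 23.1% in WT host libraries, and the presomitic mesoderm-like class 3.95% to 7.25% against 2.71% and 2.12%. When class levels were averaged with the same weights in every library, over the 32 classes with a cell in every library and with the share of UMIs of each class as the weight, the picture changed for several ligands. In 8 of these classes at least 1 library had fewer than 10 cells. Standardised Fgf8 was 60.4, 66.8, 51.0 and 44.9 CPM in Tet-TKO and 51.5 and 52.6 CPM in WT host libraries, so the groups overlapped. Those of Fgf10, Fgf17 and Fgf18 overlapped too. Fgf3 was higher over the 32 classes, with 58.8, 41.5, 29.3 and 28.3 CPM against 22.5 and 13.6 CPM. Over the 24 classes with at least 10 cells in every library, a choice made after seeing the data, the Fgf3 groups overlapped, with 29.7, 23.7, 21.96 and 20.2 CPM against 21.3 and 14.6 CPM. The classes left out include the erythroid-like class and cluster 27, which had 9 and 8 cells in Tet-TKO library 4. Fgf3 had log2 fold changes of 3.07 and 1.54 in these, so the overlap does not cover them. Standardised Fgf4 separated the other way, with 0.662, 0.673, 0.817 and 0.613 CPM against 1.40 and 1.20 CPM, and did so over the 24 classes too, with 0.583 to 0.976 CPM against 1.46 and 1.62 CPM. Those of the other members overlapped over the 24 classes. These levels are a description without a test. The share of all genes that separate after the same weighting was not computed, so separation here is in itself no result about the members.

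Class by class, 109 combinations of a member and a class could be tested in 29 classes, and 0 of 109 passed the threshold in edgeR, where 0.548% of all gene and class combinations did. With DESeq2 the count was 7, beside 1.09% of all combinations. At an unadjusted p of 0.05, 24 of the 109 passed beside 11.4% of all combinations. At an adjusted p of 0.05, a threshold chosen after seeing the data, 6 of 109 passed beside 1.26%. Those 6 were Fgf3, Fgf4 and Fgf15 in the surface ectoderm-like class, Fgf3 and Fgf15 in the erythroid-like class and Fgf8 in the allantois-like class. Genes with few counts were not tested, and Fgf4 and Fgf5 entered in only 3 classes each. Over the same 29 classes, 168 combinations had a mean of at least 0.5 CPM. Of these, Tet-TKO lay higher without overlap in 17 (10.1%) and lower in 14 (8.33%), where 9.74% and 12.3% of all gene and class combinations did. The shares of the members are near those of all genes, so non-overlap in itself is no result about the FGF ligands. Fgf3 made up 5 of the 17 and Fgf4 3 of the 14.

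In 4 blood-related classes every Tet-TKO library that could be summed lay above both WT host libraries for Fgf3, although none passed the threshold. These were 4 Tet-TKO libraries in the blood progenitor-like and haematoendothelial progenitor-like classes, where 11.8% and 9.21% of genes with a mean of at least 0.5 CPM had the same order, and 3 in the erythroid-like class and cluster 27, where 29.8% and 10.5% had it. In the blood progenitor-like class it reached 302, 253, 217 and 187 CPM in Tet-TKO, against 144 and 51.5 CPM in WT host cells. Its log2 fold change there was 1.30 ± 0.33 with an edgeR adjusted p of 0.0672, in a class where 1.07% of genes passed. Without libraries 3 and 4 the log2 fold change was 1.58 (edgeR adjusted p = 0.00191), and without libraries 1 and 2 it was 1.02 (edgeR adjusted p = 0.0698). The 6 blood progenitor markers summed to 553 to 619 CPM in Tet-TKO and 669 to 690 CPM in WT host blood progenitor-like cells, with 2 of the 6 lower in every Tet-TKO library, and the 7 visceral endoderm markers to 1.09 to 2.89 CPM and 24.3 to 62.1 CPM, with 7 of 7 lower. The 6 haematoendothelial progenitor markers summed to 360 to 471 CPM against 514 to 568 CPM (2 of 6 lower and 1 at 0), the 6 mesenchyme markers to 9.43 to 18.8 CPM against 31.03 to 41.3 CPM (3 of 6 lower), the 7 cardiomyocyte markers to 4.12 to 5.44 CPM against 12.4 to 19.4 CPM (2 of 7 lower), and the 6 forebrain markers to 9.88 to 14.1 CPM against 3.07 to 5.13 CPM (1 of 6 higher and 2 at 0). The myeloid markers were at 0 to 0.549 CPM against 3.80 to 6.76 CPM, the gut endoderm markers at 1.47 to 7.98 CPM against 11.98 to 31.95 CPM, the epiblast markers at 18.4 to 20.99 CPM against 30.8 to 38.7 CPM and the neural crest markers at 13.4 to 26.8 CPM against 8.56 to 12.6 CPM. In all, of 29 marker lists 9 summed lower and 2 higher in every Tet-TKO library of this class, the remaining lower list being midbrain and midbrain-hindbrain boundary at 0 to 0.274 CPM against 0.761 to 1.23 CPM. The part of these lists in the result was not tested.

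After thinning every cell to 5000 UMIs, 61.8% of Tet-TKO and 22.7% of WT host blood progenitor-like cells held an Fgf3 UMI, where 0.215% of WT host visceral endoderm-like cells did. Before thinning these were 89.2%, 42.0% and 1.25%, and thinning left out 968 Tet-TKO and 1277 WT host cells of all classes.

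In the erythroid-like class, the haemoglobin-producing cells, Fgf3 was at 221, 126 and 71.3 CPM in the first 3 Tet-TKO libraries, against 21.8 and 4.99 CPM in WT host cells. Tet-TKO library 4 had 9 such cells and was not summed. Of all genes 1.31% passed in this class. For Fgf3 the log2 fold change was 3.07 ± 0.63 with an edgeR adjusted p of 0.0252, 3.33 without library 3 (edgeR adjusted p = 0.00162) and 2.18 without libraries 1 and 2 (edgeR adjusted p = 0.108), where library 3 alone remained and was assumed to vary like the other libraries. In all, 125 Tet-TKO cells against 3407 WT host cells belong to this class, and they sat in different clusters. Cluster 5, with 1512 WT host and 11 Tet-TKO cells, had Fgf3 at 0.894 and 1.69 CPM in the WT host libraries. Within cluster 31, Tet-TKO library 2 had 133 CPM against 31.2 and 10.4 CPM, and within cluster 8 Tet-TKO libraries 2 and 3 had 124 and 62.9 CPM against 28.1 and 7.23 CPM. The 7 erythroid markers summed to 18948 to 68579 CPM in Tet-TKO and 90798 to 156805 CPM in WT host erythroid-like cells, and 4 of the 7 were lower in every Tet-TKO library. None of the 7 was at 0. Of the 29 lists 4 summed lower and 7 higher there in every Tet-TKO library summed. Among the higher were the 5 allantois markers with 33.3 to 68.6 CPM against 5.27 to 6.98 CPM (5 of 5 higher), the 6 extraembryonic and lateral plate mesoderm markers with 95.5 to 291 CPM against 32.1 to 44.0 CPM (5 of 6), and the 6 spinal cord markers with 33.3 to 59.5 CPM against 13.4 to 16.2 CPM (3 of 6). The 6 pharyngeal mesoderm markers had 13.6 to 42.8 CPM against 6.56 to 7.68 CPM (3 of 6). The 6 parietal endoderm markers had 52.7 to 144 CPM against 36.8 to 49.5 CPM (2 of 6 higher and 1 lower). The 6 primordial germ cell markers had 3.099 to 10.7 CPM against 1.81 to 2.25 CPM (2 of 6 higher, 1 lower and 2 at 0), and the hindbrain list is given below with Fgf15. Lower besides the erythroid list were the myeloid markers, at 0 CPM against 1.11 to 1.42 CPM (4 of 6, 1 at 0), and the haematoendothelial progenitor markers, at 237 to 269 CPM against 270.3 to 343 CPM. The 7 visceral endoderm markers were at 2.14 to 6.40 CPM against 32.0 to 99.2 CPM, 7 of 7 lower. The part of these shifts in the Fgf3 result was not tested.

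The other blood-related classes had the same order. Cluster 27 had 428, 269.6 and 175 CPM of Fgf3 in the first 3 Tet-TKO libraries against 146 and 66.3 CPM, a log2 fold change of 1.54 ± 0.40 (edgeR adjusted p = 0.0912), where 0.994% of genes passed. In this cluster the 6 myeloid markers summed to 1.75 to 10.6 CPM in Tet-TKO and 117 to 386 CPM in WT host cells, with 5 of the 6 lower in every Tet-TKO library summed, the 7 visceral endoderm markers to 1.76 to 6.12 CPM and 49.97 to 55.8 CPM, 7 of 7 lower, and the 7 endothelium markers to 223 to 307 CPM and 362 to 393 CPM, 2 of 7 lower. None of these was at 0. In all 10 of the 29 lists summed lower, the others being cardiomyocyte, epiblast, extraembryonic and lateral plate mesoderm, gut endoderm, mesenchyme, parietal endoderm and somitic and paraxial mesoderm, and 1 summed higher, neural crest at 21.3 to 33.5 CPM against 17.8 to 19.6 CPM (1 marker higher, 1 lower and 2 at 0). Their part in the result was not tested. The haematoendothelial progenitor-like class, which gives rise to blood and vessels, had 54.7, 29.3, 44.1 and 69.5 CPM against 19.5 and 15.8 CPM. Its log2 fold change was 1.43 ± 0.31 with an edgeR adjusted p of 0.0541, beside 0.776% of genes called. It passed the threshold without libraries 3 and 4 (1.28, edgeR adjusted p = 0.00215) and without libraries 1 and 2 (1.55, edgeR adjusted p = 0.000855). Those fits called 1.65% and 4.03% of all gene and class combinations. In cluster 27 the log2 fold change was 1.83 without library 3 (edgeR adjusted p = 0.00117) and 0.70 without libraries 1 and 2 (edgeR adjusted p = 0.0534), again with library 3 alone. In the haematoendothelial progenitor-like class the 7 erythroid markers summed to 7.36 to 41.7 CPM in Tet-TKO and 538 to 1372 CPM in WT host cells, 7 of 7 lower in every Tet-TKO library, and the 7 endothelium markers to 996 to 1327 CPM and 1410 to 1620 CPM, 5 of 7 lower. The 7 visceral endoderm markers were at 5.34 to 14.7 CPM against 78.5 to 85.3 CPM (6 of 7 lower), the 7 cardiomyocyte markers at 22.1 to 25.8 CPM against 30.7 to 52.3 CPM (5 of 7), the 6 epiblast markers at 52.5 to 64.6 CPM against 66.4 to 73.8 CPM (4 of 6) and the 6 myeloid markers at 0 to 1.64 CPM against 5.39 to 7.503 CPM (3 of 6, 1 at 0). In all 11 of the 29 lists summed lower in every Tet-TKO library, the others being caudal epiblast and neuromesodermal progenitor, hindbrain, spinal cord, pharyngeal mesoderm and primordial germ cell, and 0 summed higher. Their part was not tested.

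Whether the difference varied between classes was tested directly. In the presomitic mesoderm-like class, Fgf3 was 74.2, 86.7, 76.2 and 67.7 CPM in Tet-TKO and 90.1 and 73.6 CPM in WT host libraries, with a log2 fold change of -0.09 ± 0.16. A class-by-genotype term with library as a block was fitted for every combination of the 3 highest tested classes of a member, 24 in all, and 3 of 24 passed the threshold, where 0.125% of all terms did. The standard errors of these terms draw on the spread of all genes. They can be smaller than the spread of a single gene between the 2 WT host libraries. For Fgf3 the log2 fold change was 1.43 ± 0.18 larger in the blood progenitor-like than in the presomitic mesoderm-like class (edgeR adjusted p = 1.96e-06), where 0.451% of genes passed for these classes. It was 1.55 larger without Tet-TKO libraries 3 and 4 and 1.33 larger without libraries 1 and 2. Without WT host library 2 it was 0.98, under the minimum fold. Fgf3 was higher in the blood progenitor-like than in the presomitic mesoderm-like class in WT host library 1, and lower in WT host library 2. Cluster 27 differed from the presomitic mesoderm-like class by 1.54 ± 0.31 (edgeR adjusted p = 0.0259), which did not pass, beside 0.239% of genes. That term was 1.80 without libraries 3 and 4 (edgeR adjusted p = 0.000211) and 0.83 without libraries 1 and 2 (edgeR adjusted p = 0.158).

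**Figure D3:**
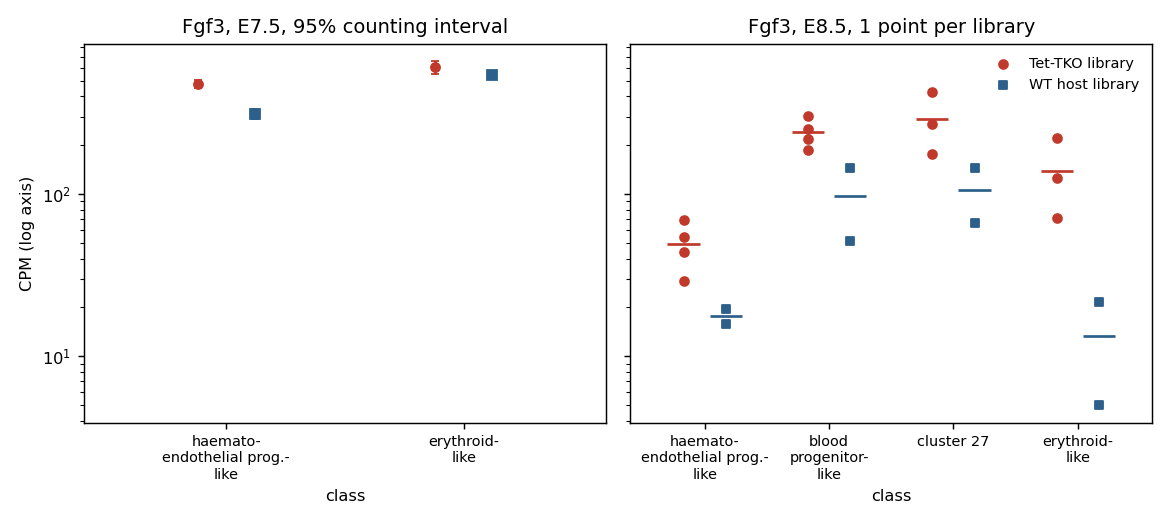
Fgf3 in blood-related classes, in CPM on a log axis shared by both panels. At E7.5 (left, 1 library per genotype, 95% Poisson intervals) the erythroid-like values are 603 and 539 CPM, and at E8.5 (right, 1 point per library, lines at group means) WT host erythroid-like values are 21.8 and 4.99 CPM while the Tet-TKO values lie between 71.3 and 221 CPM.

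Fgf8 did not separate the genotypes in its leading class, the caudal epiblast, but did so in the presomitic mesoderm. In the presomitic mesoderm-like class it was 293, 317, 268 and 221 CPM in Tet-TKO and 181 and 136 CPM in WT host libraries. All Tet-TKO values lay above the WT host values, with a log2 fold change of 0.81 ± 0.20 (edgeR adjusted p = 0.180), and 0.165% of genes passed in this class, while 8.95% lay higher in Tet-TKO without overlap. The share that passed was 0.42% in the caudal epiblast and neuromesodermal progenitor-like and 0.573% in the pharyngeal mesoderm-like class. For Fgf8 in the presomitic mesoderm-like class the log2 fold change was 1.00 without libraries 3 and 4 (edgeR adjusted p = 0.00255) and 0.57 without libraries 1 and 2 (edgeR adjusted p = 0.0130). In the caudal epiblast and neuromesodermal progenitor-like class the values were 289, 323, 270.3 and 238 CPM against 289 and 397 CPM and overlapped, with a log2 fold change of -0.27 ± 0.18. In the pharyngeal mesoderm-like class they were 137, 124, 87.8 and 89.3 CPM against 175 and 113 CPM, with a log2 fold change of -0.34 ± 0.24. The log2 fold change of Fgf8 in the presomitic mesoderm-like class differed from both. That of the caudal epiblast and neuromesodermal progenitor-like class differed from it by -1.07 ± 0.14 (edgeR adjusted p = 0.000754), and that of the pharyngeal mesoderm-like class by -1.16 ± 0.13 (edgeR adjusted p = 0.000987). The share of genes that passed was 0.0489% and 0.0688% for these terms.

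Both terms passed without Tet-TKO libraries 3 and 4 and without libraries 1 and 2. Without WT host library 2 they were -0.66 (edgeR adjusted p = 0.00727) and -1.28 (edgeR adjusted p = 0.0123). Without WT host library 1 the second was -1.03 (edgeR adjusted p = 0.0782), and with DESeq2 the first had an adjusted p of 0.0372. After thinning, 67.4% of Tet-TKO and 43.6% of WT host presomitic mesoderm-like cells held an Fgf8 UMI, against 58.7% and 61.2% of caudal epiblast and neuromesodermal progenitor-like cells and 0.316% of WT host blood progenitor-like cells. Before thinning the presomitic shares were 94.3% and 61.9%, and that of the blood progenitor-like cells was 1.80%. The 7 presomitic mesoderm markers summed to 280 to 423 CPM in Tet-TKO and 465 to 505 CPM in WT host presomitic mesoderm-like cells, and 3 of the 7 were lower in every Tet-TKO library. The 7 erythroid markers summed to 12.2 to 49.0 CPM in Tet-TKO and 630 to 1466 CPM in WT host cells of this class, with 6 of the 7 lower in every Tet-TKO library and none at 0, and the 7 visceral endoderm markers to 5.26 to 10.1 CPM and 27.4 to 62.6 CPM, with 7 of 7 lower and none at 0. In all 8 of the 29 lists summed lower in every Tet-TKO library, the others being blood progenitor, haematoendothelial progenitor, endothelium, cardiomyocyte and intermediate mesoderm, and 1 summed higher, forebrain at 4.86 to 9.47 CPM against 3.62 to 4.22 CPM. A list that summed higher may hold markers that were lower in every Tet-TKO library, and the reverse. The part of these markers in the result was not tested.

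**Figure D4:**
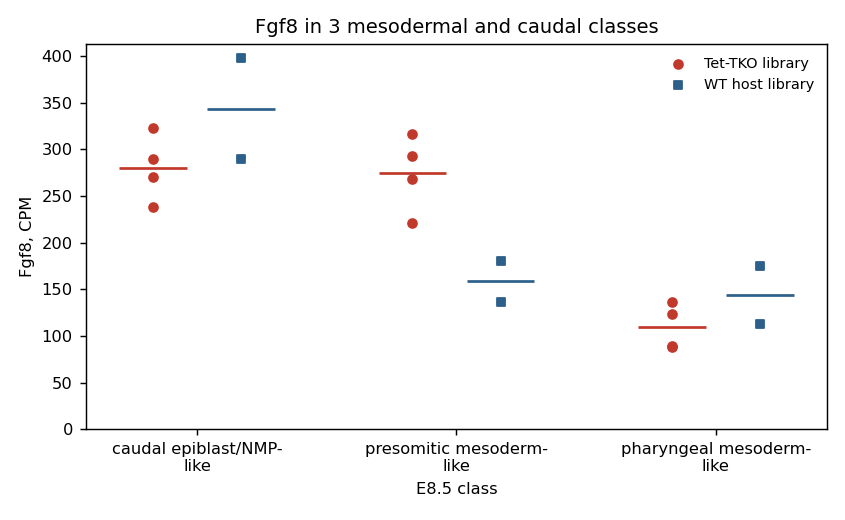
Fgf8 in the 3 tested E8.5 classes with its highest levels, in CPM, with 1 point per library and a line at each group mean. The primordial germ cell-like class, which was not tested, had 230 to 594 CPM in Tet-TKO libraries and is not shown. The 4 Tet-TKO libraries lie between 221 and 317 CPM in the presomitic mesoderm-like class, above the WT host libraries at 181 and 136 CPM, and overlap with them in the other 2 classes.

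Away from its leading classes, Fgf8 was 134, 107, 69.2 and 110.2 CPM in Tet-TKO and 37.6 and 9.21 CPM in WT host cells of cluster 9, a log2 fold change of 2.14 ± 0.47 (edgeR adjusted p = 0.0916), with 0.408% of genes called. It was 2.35 without libraries 3 and 4 (edgeR adjusted p = 0.000241) and 1.81 without libraries 1 and 2 (edgeR adjusted p = 0.000751). In the allantois-like class, the extraembryonic mesoderm of the future umbilical cord, Fgf8 was 10.1, 9.26, 6.84 and 5.63 CPM against 2.51 and 1.79 CPM. In that class 0.658% of genes passed, and for Fgf8 the log2 fold change was 1.89 ± 0.37 (edgeR adjusted p = 0.0386), 2.17 without libraries 3 and 4 (edgeR adjusted p = 0.00103) and 1.40 without libraries 1 and 2 (edgeR adjusted p = 0.00175). The groups did not overlap in either class, an order that 10.3% of genes had in cluster 9 and 12.2% in the allantois-like class. The share of allantois-like cells with an Fgf8 UMI after thinning was 3.68% in Tet-TKO (0% to 6.01% over libraries) and 0.884% in WT host libraries, against 0.227% and 0.316% of blood progenitor-like cells. Before thinning these were 17.4%, 2.68%, 2.001% and 1.80%. Within the class, cluster 0 held 12.4, 12.9, 8.38 and 6.73 CPM of Fgf8 in Tet-TKO and 2.20 and 2.68 CPM in WT host libraries. The 7 erythroid markers summed to 8.07 to 40.1 CPM in Tet-TKO and 572 to 1366 CPM in WT host allantois-like cells, 7 of 7 lower. The 7 visceral endoderm markers summed to 9.38 to 12.3 CPM and 29.3 to 67.4 CPM (7 of 7 lower) and the 6 blood progenitor markers to 10.7 to 13.1 CPM and 16.4 to 24.5 CPM (4 of 6 lower). The 5 allantois markers themselves summed to 355 to 434 CPM and 450.4 to 467 CPM (1 of 5 lower). The 6 extraembryonic and lateral plate mesoderm markers summed to 1005 to 1098 CPM and 1316 to 1397 CPM (3 of 6 lower and 1 higher). In all 8 of the 29 lists summed lower, the others being endothelium, nascent mesoderm and somitic and paraxial mesoderm, and 2 summed higher, hindbrain at 55.9 to 83.7 CPM against 42.9 to 52.8 CPM and primordial germ cell at 5.63 to 8.64 CPM against 3.39 to 4.52 CPM. In cluster 9 the 7 erythroid markers summed to 10.5 to 43.9 CPM in Tet-TKO and 628 to 1386 CPM in WT host cells and the 7 visceral endoderm markers to 8.95 to 14.2 CPM and 35.3 to 65.9 CPM, with 6 of 7 lower for both. In that cluster the 6 haematoendothelial progenitor markers summed to 52.5 to 58.6 CPM in Tet-TKO and 219 to 299 CPM in WT host cells (4 of 6 lower), the 5 intermediate mesoderm markers to 23.2 to 45.7 CPM and 81.6 to 112 CPM (2 of 5 lower) and the 7 markers of caudal epiblast and neuromesodermal progenitors to 737 to 885 CPM and 947 to 1115 CPM (3 of 7 lower). None of the markers named so far for these cells was at 0. In all 9 of the 29 lists summed lower in cluster 9, the others being blood progenitor, cardiomyocyte, endothelium and extraembryonic and lateral plate mesoderm, and 5 summed higher, notochord at 39.03 to 68.9 CPM against 21.6 to 32.3 CPM together with hindbrain, midbrain, neural crest and surface ectoderm. For cluster 9 the counts in brackets give the lower markers only. Others of the same lists may be higher, and a list that summed higher may hold lower markers. The part of these lists in the results was not tested.

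In other classes Fgf8 was lower in Tet-TKO cells without overlap. In the cardiomyocyte-like class it was 94.2, 67.2, 55.6 and 54.5 CPM in Tet-TKO and 115 and 103 CPM in WT host libraries, a log2 fold change of -0.73 ± 0.24 (edgeR adjusted p = 0.236), an order shared by 10.9% of genes there. Without libraries 3 and 4 it was -0.38 (edgeR adjusted p = 0.115) and without libraries 1 and 2 it was -1.11 (edgeR adjusted p = 3.6e-05). The 7 cardiomyocyte markers summed to 14287 to 20149 CPM in Tet-TKO and 20807 to 21686 CPM in WT host cells of the class (2 of 7 lower) and the 7 erythroid markers to 8.93 to 61.8 CPM and 1761 to 6743 CPM (6 of 7 lower). Of the 29 lists 8 summed lower and 2 higher, and their part was not tested. In cluster 7 Fgf8 was 21.7 to 35.1 CPM against 38.4 and 40.2 CPM (12.5% of genes in that order), with a log2 fold change of -0.48 ± 0.24, and in the surface ectoderm-like class 26.03 to 62.5 CPM against 70.7 and 72.0 CPM, with a log2 fold change of -0.56 ± 0.32. Cluster 26 had the higher order again, with means of 62.3 CPM in Tet-TKO and 21.4 CPM in WT host libraries. Its log2 fold change was 1.60 ± 0.37 (edgeR adjusted p = 0.116). Over all tested classes together, 9.74% of gene and class combinations had that order.

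Fgf3, Fgf4 and Fgf15 lie next to each other on chromosome 7 of mm10, all on the forward strand, at chr7:144838083-144844436, chr7:144847367-144865243 and chr7:144896531-144900953. They span 62.9 kb in all, with gaps of 2.93 kb and 31.3 kb. Because these neighbours were all lower in Tet-TKO cells of the surface ectoderm-like class, the promoter windows of those with a RefSeq entry (GRCm38.p6, 250 bases before to 50 after the start, 5′ to 3′ on the forward strand) are printed, with CG dinucleotides, the sites of DNA methylation, in capitals.
Fgf3, chr7:144838362-144838661: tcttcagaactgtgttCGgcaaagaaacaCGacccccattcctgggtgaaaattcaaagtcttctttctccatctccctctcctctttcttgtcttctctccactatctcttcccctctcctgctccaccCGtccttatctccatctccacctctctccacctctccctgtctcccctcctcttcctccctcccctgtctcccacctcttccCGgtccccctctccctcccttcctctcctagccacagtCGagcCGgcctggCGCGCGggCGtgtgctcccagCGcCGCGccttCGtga
Fgf4, chr7:144861136-144861435: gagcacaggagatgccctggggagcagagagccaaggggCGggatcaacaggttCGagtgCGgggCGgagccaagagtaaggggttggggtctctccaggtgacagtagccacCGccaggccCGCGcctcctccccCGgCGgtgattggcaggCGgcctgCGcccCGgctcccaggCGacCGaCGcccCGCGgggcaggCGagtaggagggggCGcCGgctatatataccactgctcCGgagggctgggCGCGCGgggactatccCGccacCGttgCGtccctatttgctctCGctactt
The motif CG reads the same on both strands. It occurs 14 times in the Fgf3 window, 11 of them in the last 100 bases, and 28 times in the Fgf4 window. Of all 32851 RefSeq promoter windows of this length, 36.3% held at least 14 and 14.2% at least 28, and the median was 7. Of the 8 members, 5 matched an entry, and Fgf5, Fgf10 and Fgf18 had 29, 10 and 47. Both windows lie inside the interval the files give for their gene. These are letters in a window and not measured methylation.

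In the surface ectoderm-like class, which covers the embryo and forms the placodes, all 3 neighbours had lower levels in Tet-TKO cells. So did Fgf8 and Fgf17, which lie on chromosomes 19 and 14, so the order was not particular to the neighbours. Fgf3 was 2.66, 2.84, 4.03 and 1.67 CPM in Tet-TKO and 10.3 and 10.5 CPM in WT host libraries, a log2 fold change of -1.85 ± 0.28 (edgeR adjusted p = 0.0195). Fgf4 was 0.379, 0.371, 0.896 and 0.625 CPM against 3.04 and 3.59 CPM, a log2 fold change of -2.56 ± 0.39 (edgeR adjusted p = 0.0195). Fgf15 was 1.42, 1.98, 3.43 and 2.29 CPM against 9.24 and 6.91 CPM, a log2 fold change of -1.85 ± 0.32 (edgeR adjusted p = 0.0346). For all 3 genes every Tet-TKO library lay below both WT host libraries, as did 15.2% of genes with a mean of at least 0.5 CPM in this class, where 0.568% passed the threshold. Fgf17 was 3.75 to 9.41 CPM in Tet-TKO and 9.59 and 11.6 CPM in WT host libraries, a log2 fold change of -0.68 ± 0.33 (edgeR adjusted p = 0.451), and the values of Fgf8 are given above. The levels of the 3 neighbours rest on few cells. After thinning, 7 of 553 and 7 of 532 WT host cells of the class held an Fgf4 UMI and 22 and 25 an Fgf3 UMI, with 3 cells holding both in each library. The mean shares were 0.249% in Tet-TKO and 1.29% in WT host libraries for Fgf4, and 1.01% and 4.34% for Fgf3, where WT host visceral endoderm-like cells had 0% and 0.215%. For Fgf15 the shares of cells were 1.07% and 3.31%, where WT host pharyngeal mesoderm-like cells had 0.493%. Before thinning the shares in the class were 2.04% and 3.55%, 5.11% and 8.70%, and 2.39% and 6.66%.

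All 3 passed the threshold with DESeq2, without Tet-TKO libraries 3 and 4 and without libraries 1 and 2. Those fits called 1.09%, 1.65% and 4.03% of all gene and class combinations. With libraries 1 and 2 and libraries 3 and 4 each summed into 1 sample, the edgeR adjusted p-values of these genes were 0.0362, 0.0877 and 0.113. Without libraries 3 and 4 the log2 fold changes were -1.84, -3.01 and -2.20, and without libraries 1 and 2 they were -1.83, -2.11 and -1.51. The class joins 3 clusters. Cluster 10, with Dlx5 and Tfap2a among its leading genes and 598 Tet-TKO and 637 WT host cells, held most of the signal. There Fgf3 was 2.82 to 5.46 CPM in Tet-TKO and 14.98 and 16.4 CPM in WT host libraries, Fgf4 was 0.909 to 1.37 CPM against 4.92 and 5.84 CPM, and Fgf15 was 1.80 to 5.81 CPM against 14.8 and 9.52 CPM. Clusters 24 and 25 had at most 4.78 CPM of Fgf3 in any library. The 6 surface ectoderm markers summed to 349 to 511 CPM in Tet-TKO and 334 to 356 CPM in WT host libraries, and none was at 0. The 7 erythroid markers summed to 6.66 to 35.1 CPM and 537 to 1316 CPM and the 7 visceral endoderm markers to 2.99 to 5.62 CPM and 29.1 to 59.9 CPM, with 7 of 7 lower in every Tet-TKO library for both. The 6 somitic and paraxial mesoderm markers were at 6.74 to 14.2 CPM against 19.8 to 30.02 CPM (5 of 6 lower), the 6 mesenchyme markers at 86.3 to 217 CPM against 305 to 325 CPM (3 of 6), the 5 intermediate mesoderm markers at 16.9 to 19.4 CPM against 32.7 to 41.2 CPM (2 of 5), the 7 cardiomyocyte markers at 11.2 to 18.2 CPM against 30.2 to 31.3 CPM (4 of 7) and the 6 pharyngeal mesoderm markers at 42.8 to 54.7 CPM against 82.5 to 87.5 CPM (2 of 6). The 6 spinal cord markers were at 105 to 121 CPM against 150.1 to 152 CPM (2 of 6), the 5 midbrain markers at 5.83 to 11.4 CPM against 14.3 to 17.001 CPM (2 of 5) and the 6 haematoendothelial progenitor markers at 9.39 to 14.8 CPM against 17.5 to 21.4 CPM (3 of 6). Of the 29 lists these 10 summed lower and 2 higher, neural crest at 40.1 to 73.7 CPM against 25.4 to 38.4 CPM (3 of 6 higher) and allantois at 5.53 to 11.001 CPM against 1.17 to 3.72 CPM (2 of 5 higher). None of these markers was at 0, and their part in the result was not tested.

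**Figure D5:**
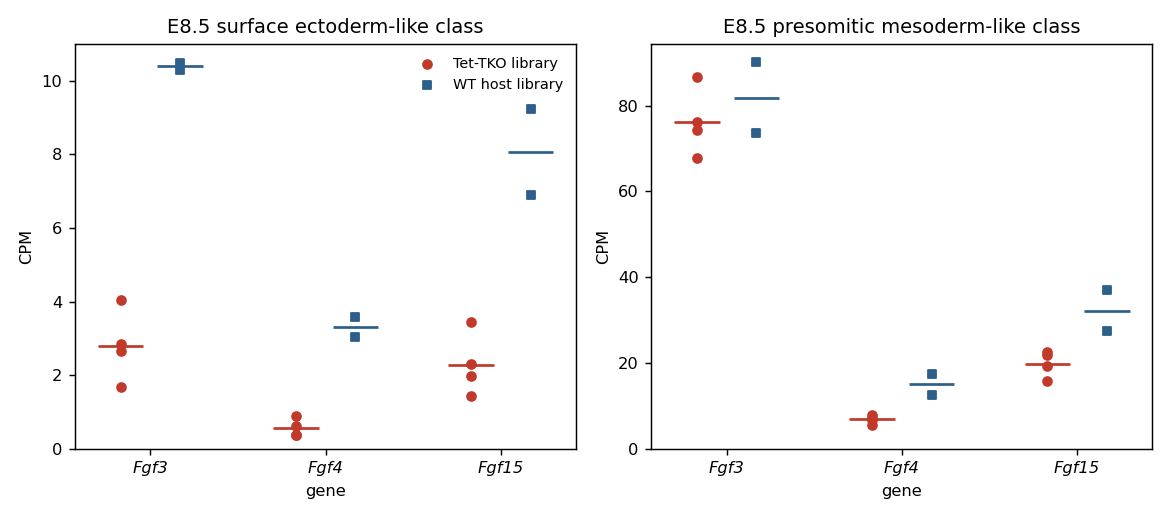
Level of the chromosome 7 neighbours Fgf3, Fgf4 and Fgf15 in 2 E8.5 classes, in CPM, with 1 point per library and a line at each group mean. In the surface ectoderm-like class all 3 genes are lower in every Tet-TKO library, and in the presomitic mesoderm-like class Fgf4 and Fgf15 are lower while Fgf3 overlaps.

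In the presomitic mesoderm-like class the neighbours differed among themselves. Fgf4 was 7.08, 6.70, 7.97 and 5.59 CPM in Tet-TKO and 17.5 and 12.5 CPM in WT host libraries, a log2 fold change of -1.11 ± 0.24 (edgeR adjusted p = 0.109). The Fgf4 groups did not overlap, as for 12.7% of genes in that direction, and the log2 fold change was -1.07 without libraries 3 and 4 (edgeR adjusted p = 0.0478) and -1.17 without libraries 1 and 2 (edgeR adjusted p = 0.0179). Fgf15 was 15.8 to 22.5 CPM against 27.4 and 37.0 CPM, with a log2 fold change of -0.67 ± 0.22 (edgeR adjusted p = 0.405), which was -0.49 without libraries 3 and 4 and -0.92 without libraries 1 and 2 (edgeR adjusted p = 0.202 and 0.0106). In the caudal epiblast and neuromesodermal progenitor-like class Fgf4 was 3.79, 5.21, 6.16 and 4.06 CPM in Tet-TKO and 6.60 and 7.12 CPM in WT host libraries, again without overlap, as for 15.1% of genes. The log2 fold change was -0.49 ± 0.27 (edgeR adjusted p = 0.492), -0.51 without libraries 3 and 4 and -0.46 without libraries 1 and 2. In the presomitic mesoderm-like class Fgf8 was higher in Tet-TKO libraries, as given above. In the erythroid-like class Fgf15 was at 6.43, 7.68 and 15.5 CPM in the first 3 Tet-TKO libraries, against 3.28 and 3.23 CPM in WT host cells. Its log2 fold change of 1.49 ± 0.37 (edgeR adjusted p = 0.0444) became 0.89 without library 3 (edgeR adjusted p = 0.169) and 1.96 with library 3 alone (edgeR adjusted p = 0.0139). Within cluster 31 of that class, Fgf15 was 9.72 CPM in Tet-TKO library 2 and 9.82 and 13.4 CPM in WT host libraries. Within cluster 8 it was 2.65 and 6.17 CPM, from 1 and 5 UMIs, in Tet-TKO libraries 2 and 3 against 2.15 and 1.16 CPM, and cluster 5 had 0.894 and 1.07 CPM in WT host libraries. The 5 hindbrain markers summed to 27.9 to 81.4 CPM in Tet-TKO and 11.4 and 11.98 CPM in WT host erythroid-like cells, with none at 0, and their part and that of the markers given above for this class in the Fgf15 result were not tested.

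The remaining ligands had no separation in their leading class. Fgf17 in the caudal epiblast and neuromesodermal progenitor-like class was 79.2, 94.7, 117 and 124 CPM in Tet-TKO and 76.9 and 114 CPM in WT host libraries, with a log2 fold change of 0.13 ± 0.19. Fgf18 in the somitic and paraxial mesoderm-like class was 20.1, 42.4, 35.4 and 39.0 CPM against 30.7 and 33.7 CPM, a log2 fold change of 0.12 ± 0.24. Fgf10 in cluster 9 was 19.5, 25.1, 28.0 and 40.1 CPM against 19.1 and 28.0 CPM, a log2 fold change of 0.24 ± 0.28. Fgf5 in the forebrain-like class spread from 2.62 to 40.0 CPM in Tet-TKO and from 2.02 to 12 CPM in WT host libraries, and in this class the lower values came from Tet-TKO libraries 3 and 4 and WT host library 2. With a standard error of 1.01 on its log2 fold change of 1.36, a difference was not detectable at this spread. Among the other high classes, Fgf5 in the surface ectoderm-like class had a log2 fold change of 0.50 ± 0.51. Fgf17 in cluster 36 had one of 0.78 ± 0.80. Fgf4 in cluster 36 and Fgf18 in the notochord-like class were not tested. In the pharyngeal mesoderm-like class Fgf10 was 30.02, 22.8, 26.6 and 28.6 CPM in Tet-TKO and 17.8 and 14.7 CPM in WT host libraries, a log2 fold change of 0.77 ± 0.20 (edgeR adjusted p = 0.134), and here the groups did not overlap, as for 6.77% of genes. It was 0.80 without libraries 3 and 4 and 0.74 without libraries 1 and 2 (edgeR adjusted p = 0.0290 and 0.0414). The other order held in the mesenchyme-like class, where Fgf10 was 4.64, 3.21, 1.25 and 1.29 CPM in Tet-TKO and 7.02 and 12.9 CPM in WT host libraries, a log2 fold change of -1.89 ± 0.52 (edgeR adjusted p = 0.104), without overlap as for 13.2% of genes. It was -1.31 without libraries 3 and 4 (edgeR adjusted p = 0.0136) and -3.10 without libraries 1 and 2 (edgeR adjusted p = 0.000177). The class joins clusters 18, 22 and 30, which held 734, 559 and 230 Tet-TKO cells and 132, 215 and 284 WT host cells, so the clusters were filled differently by the genotypes. Within cluster 30 Fgf10 was 6.26 and 6.94 CPM in Tet-TKO libraries 1 and 2 against 10.5 and 20.9 CPM, and within cluster 18 it was 0.596 to 4.55 CPM against 5.77 and 15.4 CPM. Within cluster 22 the groups overlapped, with 1.33 to 4.12 CPM against 3.64 and 1.18 CPM. The 6 mesenchyme markers summed to 1609 to 1789 CPM in Tet-TKO and 3294 to 4144 CPM in WT host cells of the class (3 of 6 lower, none at 0), the 7 cardiomyocyte markers to 94.7 to 139 CPM and 332 to 415 CPM, and the 7 erythroid markers to 9.003 to 49.4 CPM and 465 to 1211 CPM. In all 17 of the 29 lists summed lower and 2 higher in every Tet-TKO library, neural crest at 40.5 to 73.7 CPM against 18.8 to 33.001 CPM and nascent mesoderm at 37.5 to 45.02 CPM against 31.98 to 35.6 CPM. Their part in the result was not tested. Fgf15 in the hindbrain-like and midbrain and midbrain-hindbrain boundary-like classes had log2 fold changes of -0.01 ± 0.35 and 0.09 ± 0.19, and the Tet-TKO libraries 1 and 2 held 140 and 138 CPM in the hindbrain-like class against 65.1 and 63.6 CPM in libraries 3 and 4. The hindbrain-like log2 fold change was 0.46 without libraries 3 and 4 (edgeR adjusted p = 0.0369) and -0.78 without libraries 1 and 2 (edgeR adjusted p = 0.00443). Fgf15 in cluster 37 was 42.0 to 128 CPM in Tet-TKO and 50.8 and 250 CPM in WT host libraries.

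Each genotype had a lone library (n = 1) at E7.5, so no test was possible, and the 95% intervals (exact Poisson for levels, conditional binomial for ratios) cover counting error only. Fgf8 was 139 CPM in Tet-TKO and 35.6 CPM in WT host cells, a log2 ratio of 1.97 (1.92 to 2.02), and Fgf5 was 53.3 CPM against 14.2 CPM, a log2 ratio of 1.91 (1.83 to 1.998). Fgf18, Fgf10, Fgf15 and Fgf4 had log2 ratios of 1.18, 1.15, 0.82 and 0.55. Fgf3 had 99.8 CPM against 81.2 CPM and Fgf17 3.92 CPM against 3.88 CPM. The extraembryonic ectoderm-like class held 14 Tet-TKO and 1916 WT host cells, so that these sums again join cells of different makeup.

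Within classes of the same name, the gaps at E7.5 were smaller than over all cells in some and larger in others. In the nascent mesoderm-like class, the cells that have just left the primitive streak, Fgf8 was 161 CPM (153 to 169) in Tet-TKO and 113 CPM (97.8 to 129) in WT host cells, a log2 ratio of 0.51. In the primitive streak-like class it was 384 CPM against 378 CPM, a log2 ratio of 0.02 (-0.17 to 0.22). The gap was wider in the primordial germ cell-like class, with 676 CPM against 156 CPM and a log2 ratio of 2.11 (1.96 to 2.27). In that class caudal epiblast and neuromesodermal progenitor markers came second, and Cdx4 was among the leading genes. At resolution 1 the class of this name held 70 Tet-TKO and 9 WT host cells, against 161 and 174 here. In the allantois-like class Fgf8 was 137 CPM against 16.8 CPM, a log2 ratio of 3.03 (2.54 to 3.56). The log2 ratio was 4.57 (3.70 to 5.46) in the visceral endoderm-like class, from 26 UMIs in 56 Tet-TKO and 22 UMIs in 426 WT host cells. The order was reversed in the somitic and paraxial mesoderm-like class, with 35.4 CPM against 49.7 CPM and a log2 ratio of -0.49 (-0.81 to -0.18). Fgf5 in the epiblast-like class was 171 CPM (164 to 178) against 41.7 CPM (37.8 to 45.9), a log2 ratio of 2.04 (1.89 to 2.19). Most Tet-TKO cells of that class lay in cluster 7, led by Foxd3 and Platr10, and most WT host cells in cluster 1, led by Elavl3 and Tal2. In the primitive streak-like class Fgf5 was 174 CPM (164 to 185) against 141 CPM (114 to 174), and these intervals overlap.

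In the presomitic mesoderm-like class at E7.5, Fgf8 was higher and Fgf4 and Fgf15 were lower in Tet-TKO cells, the order also seen at E8.5 in other libraries, while Fgf17 was not in the same order. Fgf8 was 232 CPM against 101 CPM, a log2 ratio of 1.19 (1.02 to 1.37). Fgf4 was 7.76 CPM against 17.2 CPM, from 70 and 54 UMIs, a log2 ratio of -1.15 (-1.68 to -0.61). Fgf15 was 26.4 CPM against 50.1 CPM (a log2 ratio of -0.93, -1.22 to -0.63), and Fgf3 was 100.3 CPM against 103 CPM, a log2 ratio of -0.04 (-0.23 to 0.14). Of these cells, 330 of the 387 Tet-TKO cells were in cluster 19 and 210 of the 237 WT host cells in cluster 22. Fgf17, which overlapped at E8.5 with a log2 fold change of 0.09 ± 0.36, was 10.9 CPM against 24.6 CPM, a log2 ratio of -1.18 (-1.62 to -0.73). The E7.5 order of Fgf8, Fgf4 and Fgf15 was not particular to this class. In the caudal epiblast and neuromesodermal progenitor-like class (46 Tet-TKO cells) their log2 ratios were 1.89, -1.72 and -3.10. Fgf4 and Fgf15 had 3 and 2 Tet-TKO UMIs there. In the nascent mesoderm-like class the ratios were 0.51, -1.29 and -0.77. In the epiblast-like class these genes were all higher (1.37, 1.90 and 1.31).

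Fgf3 in blood-related classes was high in both genotypes at E7.5. The erythroid-like class had 603 CPM in 29 Tet-TKO cells and 539 CPM in 507 WT host cells, a log2 ratio of 0.16 (0.02 to 0.30), and the haematoendothelial progenitor-like class 477 CPM against 312 CPM, a log2 ratio of 0.61 (0.48 to 0.75). At E8.5 the erythroid-like values were 71.3 to 221 CPM in Tet-TKO and 4.99 and 21.8 CPM in WT host libraries. The haematoendothelial values were 29.3 to 69.5 CPM and 15.8 to 19.5 CPM. Values at both stages are set side by side without a test.

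The ligands also differed in which genes shared their pattern over the 32 classes of WT host cells. These are Pearson correlations of log2(CPM + 1) over class means of the same 2 libraries, among 14539 genes, and are given as a description. Fgf4 was closest to 3110004A20Rik (r = 0.811) and to Msgn1 (r = 0.796), a regulator of presomitic mesoderm. Fgf8 was closest to Car14 (r = 0.760) and Mgst1 (r = 0.746), Fgf17 to Tlx2 (r = 0.737) and Epha1 (r = 0.733), and Fgf18 to Spock3 (r = 0.754) and Ripply2 (r = 0.699), a gene of somite formation. Fgf15 had Maneal (r = 0.806) among its closest genes. Fgf5 was closest to Robo3 (r = 0.850) and Gm27199 (r = 0.795), and Fgf10 to A130010J15Rik (r = 0.666) and Gfra2 (r = 0.646). Fgf3, with its spread over blood, mesoderm and hindbrain, had the lowest values, with AA465934 (r = 0.593) and Nbn (r = 0.589). Between members, r was 0.790 for Fgf4 and Fgf17, 0.614 for Fgf8 and Fgf17 and 0.558 for Fgf4 and Fgf8. Among the chromosome 7 neighbours it was 0.564 for Fgf3 and Fgf15, 0.309 for Fgf3 and Fgf4 and 0.297 for Fgf4 and Fgf15.

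In the caudal classes, cells with an Fgf17 UMI held an Fgf8 UMI more often than cells without one, by a gap whose size differed between the classes. After thinning to 5000 UMIs, 85.3% and 89.3% of Fgf17-positive caudal epiblast and neuromesodermal progenitor-like cells of the WT host libraries held an Fgf8 UMI, against 46.8% and 47.2% of the cells without Fgf17. In Tet-TKO libraries the shares were 73.5% to 84.4% and 42.4% to 56.0%. In the presomitic mesoderm-like class they were 57.6% and 40.6% against 52.2% and 32.9% in WT host libraries 1 and 2, from 33 and 32 cells with Fgf17, and 70.0%, 79.8%, 76.0% and 85.7% against 65.5%, 75.4%, 52.3% and 66.7% in the Tet-TKO libraries. An Fgf17 UMI was found in 34.9% of WT host caudal epiblast and neuromesodermal progenitor-like cells, 16.3% of presomitic mesoderm-like cells and 0% of allantois-like cells after thinning, and in 52.8%, 30.5% and 0.397% before it. The gap had the same direction in every library of both genotypes and is a description without a test.

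The other genes of the pathway were taken from a list of 27, of which 21 could be tested over all cells at E8.5. Of these, 1 passed the threshold: Klb, a co-receptor for endocrine FGFs, fell by 4.20 on the log2 scale (standard error 0.47, edgeR adjusted p = 0.00389). Klb was 0.0585, 0.0569, 0.115 and 0.123 CPM in Tet-TKO and 2.18 and 0.789 CPM in WT host libraries. In the WT host libraries 246 of its 286 and 82 of its 100 UMIs were in visceral endoderm-like cells, a class of 6.501% and 2.46% of WT host and 0.0209% to 0.395% of Tet-TKO cells. Without erythroid-like and extraembryonic-like cells the log2 fold change was -2.002 ± 0.56 (edgeR adjusted p = 0.101) and did not pass. Of the 10 feedback and target genes, 0 passed the threshold in edgeR, and 8 had a log2 fold change above 0 with a median of 0.50. An unadjusted p under 0.05 was found for 6 of them, where 26.7% of all genes had one. An adjusted p under 0.05 was found for 5, and the share of all genes at that cut without the minimum fold was not computed. At an adjusted p under 0.05 together with the minimum fold, 1 of the 10 passed (Il17rd, log2 fold change 1.08), beside 7.01% of all genes. Among 6 tested receptors and co-receptors, Klb was the one that passed, and among 5 tested ligands outside the 8 members 0 passed and 1 had an unadjusted p under 0.05. Within classes 0 of 324 combinations of these 27 genes and a class passed in edgeR, and 64 had an unadjusted p under 0.05, where 0.548% and 11.4% of all gene and class combinations did.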

How the data were processed

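Single-cell RNA-seq counts were taken as the authors deposited them: per-library matrices of UMI counts per gene, raw and not normalized, made with Cell Ranger against mm10 with an added tdTomato sequence (the methods and the file headers name different Cell Ranger versions, the headers 3.1.0). No cell annotation was used. Samples were grouped by the labels. Cells under 1500 UMIs, over 30% mitochondrial or over 35% ribosomal counts were dropped, and doublets were removed only as an alternative. After libraries were aligned by mutual nearest neighbours, cells were clustered with scanpy 1.11.5 and leidenalg 0.10.2 at resolution 2 without the FGF genes, and clusters were named from marker lists. Counts were summed per class and library (at least 10 cells) and tested with edgeR 4.0.16 (quasi-likelihood, TMM, Benjamini-Hochberg over all genes of a class; a call needs an adjusted p under 0.01 and a log2 fold change of at least 1 in size), in R 4.3.3, with DESeq2 1.42.0 as an alternative. Differences between classes were fitted as a class-by-genotype term with library as a block. On simulated data with 200 changed genes at a log2 fold change of 2, edgeR recovered 98% for all cells of a library. The changed genes were drawn from those above the median level. The simulated libraries were independent, without the pairs of Tet-TKO libraries that resemble each other. The recovered share therefore says nothing about smaller changes or scarce members. Members and lists were chosen with earlier results of these data known. By rule the text names the 8 members, each in its 3 highest tested classes and wherever called, Fgf3 in erythroid-like and blood progenitor-like classes, Fgf8 in nascent mesoderm-like cells, the 2 genes most correlated with each member (at least 5 CPM in 1 class) and called pathway genes. Fgf3, Fgf4 and Fgf15 in surface ectoderm-like, Fgf15 in erythroid-like and presomitic mesoderm-like, Fgf3 in haematoendothelial progenitor-like Fgf10 in mesenchyme-like, Fgf17 in surface ectoderm-like and Fgf8 in allantois-like, cardiomyocyte-like and surface ectoderm-like cells and clusters 7, 9 and 26, and at E7.5 other classes than nascent mesoderm-like, were added after their values were seen. A gene that this rule names is not reported here. Sequences came from RefSeq (GRCm38.p6). Alternatives were another clustering resolution, cell, count and fold filters, normalization, doublet removal, tdTomato matching, a replicate block and left-out libraries, and those without Tet-TKO libraries 1 and 2 or 3 and 4, an adjusted p of 0.05, unmerged clusters and weighted levels over larger classes were chosen after seeing the data.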

Additional observations from a re-analysis of the deposited data

Results flagged for a closer look

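Between Tet-TKO and WT host cells, the log2 fold change of Fgf3 was 1.43 larger in the blood progenitor-like than in the presomitic mesoderm-like class at E8.5, by the class-by-genotype term. That of Fgf8 differed from the presomitic mesoderm-like class by -1.07 in the caudal epiblast and neuromesodermal progenitor-like class and by -1.16 in the pharyngeal mesoderm-like class. These 3 were tested as differences and passed the threshold.

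Fgf5 in the gut endoderm-like class was 13.5 CPM in Tet-TKO library 1, while the next library had 2.29 CPM. The gap was 0.945 of the range of the 4 Tet-TKO libraries, above Dixon's 95% critical value for 4 samples. Of 39 such groups, 1 stood out in this way, and chance alone gives about 1 in 20.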

How the results depend on the processing

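Over all cells, 0 of 8 members were called under each alternative except the replicate block, which called 2, Fgf3 and Fgf5, beside 8.71% of all genes. In the other alternatives the share of all genes called ran up to 9.77%, without Tet-TKO libraries 1 and 2. With libraries 1 and 2 and libraries 3 and 4 each summed, 0 of 20799 genes were called. That fit therefore says nothing about the members, and no call over all cells was kept in it. Each fit tested its own number of member and class combinations. Called were 0 of 109, but 7 of 109 with DESeq2 (1.09% of all gene and class combinations were called in the same fit), 1 of 82 at resolution 1 (0.606%), 6 of 109 at an adjusted p of 0.05 (1.26%), 2 of 105 with at least 30 cells (0.662%), 16 of 218 with no filter on low counts (1.17%), 22 of 106 with the replicate block (2.77%), 19 of 105 without Tet-TKO libraries 1 and 2 (4.03%), 13 of 107 without libraries 3 and 4 (1.65%), and 0 to 2 of 103 to 124 leaving out each library in turn (0.141% to 0.669%). Differences between classes called were 0 without WT host library 2, and 0 to 4 over the libraries left out. The share of all such terms called in these fits is not given here, so a lost call is in itself no result about the members. Of all gene and class combinations, 0.141% were called without WT host library 2, against 0.548% with all libraries. The replicate block used libraries 1 and 2 of each genotype. The study speaks of matching WT host embryos without tying library numbers to them, so these 2 pairs were not taken as paired (correlation of their deviations 0.311 over 21075 genes). The E7.5 log2 ratio of Fgf3, 0.30, became 0.24 with tdTomato-matched cells.

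Directions turned only for results that were not called. In the main fits 0 of 8 members and 0 of 109 member and class combinations were called, so for these this holds by construction. The called differences between classes did not turn, but none of them was called without WT host library 2. Over all cells, Fgf4 became 0.023 with the replicate block and 0.021 without libraries 3 and 4, Fgf5 -0.31 without libraries 1 and 2, and Fgf15 -0.15 without erythroid-like and extraembryonic-like cells. Fgf10 in cluster 9 became -0.0043 with the block and -0.012 without libraries 3 and 4, Fgf17 in the caudal class -0.056 and -0.055, and Fgf3 in the presomitic class 0.020 and 0.030, with 0.049 at resolution 1. Fgf15 in the hindbrain-like class became 0.45 with the block, 0.46 without libraries 3 and 4, 0.15 with at least 30 cells and 0.054 with doublets removed, and in the midbrain class -0.17 without libraries 1 and 2. Fgf5 in the forebrain-like class became -0.77 without libraries 1 and 2. Leaving out each library in turn, values ranged over all cells from -0.21 to 0.044 for Fgf4, -0.061 to 1.64 for Fgf5 and -0.066 to 0.46 for Fgf15, and in classes from -0.011 to 0.52 for Fgf10, -1.42 to 0.91, -0.24 to 0.19 and -0.070 to 0.26 for Fgf15 in cluster 37, the hindbrain-like and the midbrain class, -0.12 to 0.43 for Fgf17, -0.23 to 0.078 for Fgf3 and -0.64 to 0.041 for Fgf8 in the pharyngeal class. The cause was not tested. Fgf4, Fgf5 and Fgf18 rest on 612, 729 and 2119 UMIs at E8.5, which limits their tests.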
